A study of Mus musculus with 4 samples.

Results

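H3K27me3, a histone mark deposited by Polycomb and tied to gene silencing, was examined at 5 genes through which B cells receive survival and helper signals. They are Cd40, the receptor genes Tnfrsf13b (TACI), Tnfrsf13c (BAFF receptor) and Tnfrsf17 (BCMA), and the ligand gene Tnfsf13b (BAFF), out of 21887 protein-coding genes in the annotation. The genes were taken by name, and the set was chosen on earlier values of these same maps, in which the lower-coordinate end of Cd40 was covered by peaks in the knockout and bare in the wild type. The difference at Cd40 is therefore given as a description with no test. The maps came from CUT&Tag of spleen germinal center B cells of C57BL/6 mice. The KO group held 2 libraries, each from a mouse with a B-cell knockout of Kdm6b, the gene of a demethylase that removes H3K27me3, and the WT group held 2 libraries, each from a wild-type mouse. All 4 mice received sheep red blood cells by injection, a larger dose on day 5, and were analysed at day 12, and each library used 1000 to 5000 sorted cells. The series title calls the cells pre-plasma. The Cre line, the deleted part of Kdm6b, the sex and the age of the mice and the sort markers behind that term were not stated in the labels.

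CD40 is the surface receptor through which CD40 ligand on T helper cells sustains germinal center B cells. BAFF, made mainly by myeloid and stromal cells, binds the BAFF receptor, TACI and BCMA, while APRIL binds TACI and BCMA. The BAFF receptor keeps mature B cells alive, TACI acts in antibody class switching and in restraint of B cell numbers, and BCMA supports long-lived plasma cells. All these receptors signal through TRAF adaptors to NF-kB.

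Each library was deposited as a list of peaks, so coverage here means the share of a stretch of genome that lies inside peaks, and it is no read count. Read depth is unknown. The lists held 80639 and 90417 peaks in KO replicates 1 and 2 and 87486 and 82292 in WT replicates 1 and 2, and they covered 144 and 236 Mb in KO, against 213 and 101.4 Mb in WT. KO replicate 2 thus had the broadest list and WT replicate 2 the narrowest, and replicate numbers only name libraries. For every gene the 4000 bp around each end (2000 bp to each side) were measured apart, and an end with at least 25% of the window covered is called marked. Among all 43774 ends, 22.6% and 33.1% were marked in the KO libraries, against 28.8% and 17.3% in the WT libraries. Limma was fitted over the 20791 ends that any library covered. At an adjusted p of 0.05 it called 0% with a higher share in KO and 0% with a lower share. At an unadjusted p of 0.05 the counts were 701 and 109 of these 20791 ends. With every list cut to its highest peaks at equal covered length, they were 474 and 253 of 15426. Nothing is read from these unadjusted counts. The targeted gene Kdm6b was covered at its higher-coordinate end to 100% in both KO libraries, against 100% and 80.3% in the WT libraries, which does not check the deletion. The mark gives no measure of expression. Of 12 germinal center B markers, 1 and 3 were marked at either end in the KO libraries, against 0 and 0 in the WT libraries, where of all genes 33.9% and 46.7% were so marked in KO, against 41.1% and 26.9% in WT. The mean covered share over the ends of this list was 1.72% and 7.37% in KO, against 0.705% and 1.02% in WT. Over the ends of all genes it was 16.7% and 24.0% in KO, against 21.1% and 12.6% in WT. Of the 24 ends of the germinal center list, 1 was marked in both KO and neither WT, against 0.923% of all ends. This was the higher end of Ms4a1, the gene of the B cell surface protein CD20. It had 33.5% and 41.85% in KO, against 0% and 14.3% in WT (limma adjusted p = 0.907). Bcl6, Cr2, Mef2b and S1pr2, 4 of the 12, had no coverage at either end in any library, as had 8043 of all 21887 genes. Of 8 myeloid markers, 7 and 8 were marked in KO, against 8 and 6 in WT, and of 8 T cell markers 6 and 7 in KO, against 7 and 7 in WT. The mean covered share over the ends of the myeloid list was 62.8% and 78.9% in KO, against 72.4% and 45.9% in WT, and over the T cell list 43.9% and 53.1% in KO, against 57.8% and 40.8% in WT. The part of other cell types in the values below was not tested.

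The promoters on which coverage is described below are shown, each as 250 bases before and 50 bases after a start annotated by RefSeq on GRCm38.p6, which has the coordinates of mm10. Sequences were matched for 4 of the 5 genes, all but Cd40. They are shown because H3K27me3 is best known over promoters rich in CpG, and capitals mark each CG. They lie at chr15:82224331-82224630 (minus strand) for Tnfrsf13c, chr11:61126505-61126804 (plus) for Tnfrsf13b, chr16:11313559-11313858 (plus) for Tnfrsf17 and chr8:10006217-10006516 (plus) for Tnfsf13b.
Tnfrsf13c: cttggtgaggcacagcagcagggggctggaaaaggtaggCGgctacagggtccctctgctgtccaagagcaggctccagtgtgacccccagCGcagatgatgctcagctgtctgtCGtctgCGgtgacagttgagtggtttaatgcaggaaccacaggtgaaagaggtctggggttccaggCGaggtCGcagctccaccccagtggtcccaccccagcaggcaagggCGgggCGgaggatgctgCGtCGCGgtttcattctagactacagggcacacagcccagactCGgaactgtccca
Tnfrsf13b: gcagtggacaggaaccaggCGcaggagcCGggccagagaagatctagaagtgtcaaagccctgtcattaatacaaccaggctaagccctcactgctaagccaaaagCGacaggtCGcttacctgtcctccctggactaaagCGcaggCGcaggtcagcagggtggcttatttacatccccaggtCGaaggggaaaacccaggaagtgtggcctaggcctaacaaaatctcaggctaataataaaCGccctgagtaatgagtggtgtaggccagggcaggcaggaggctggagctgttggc
Tnfrsf17: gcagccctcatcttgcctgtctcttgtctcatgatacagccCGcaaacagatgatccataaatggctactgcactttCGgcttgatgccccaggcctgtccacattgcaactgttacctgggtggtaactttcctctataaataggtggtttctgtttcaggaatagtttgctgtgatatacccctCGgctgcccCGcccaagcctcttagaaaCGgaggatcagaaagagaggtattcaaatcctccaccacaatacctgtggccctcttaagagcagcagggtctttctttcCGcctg
Tnfsf13b: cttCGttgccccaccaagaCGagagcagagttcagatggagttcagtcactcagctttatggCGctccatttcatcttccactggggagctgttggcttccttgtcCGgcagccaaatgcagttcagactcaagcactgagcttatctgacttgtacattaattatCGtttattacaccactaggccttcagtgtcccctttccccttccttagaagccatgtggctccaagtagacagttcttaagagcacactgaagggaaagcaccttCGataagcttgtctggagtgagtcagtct

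The Tnfrsf13c promoter held 12 CG, and 39.6% of 32851 promoters had as many or more. Tnfrsf13b held 8 (48.65% of promoters had as many or more), and Tnfrsf17 and Tnfsf13b held 6 each (56.4%). The NF-kB binding consensus, searched by its letters on both strands, was found in none of these windows, against 8.46% of all promoters, and nothing follows from that about the factor. The Tnfrsf13c window was covered to 100% in both KO libraries, against 0% in both WT libraries. The Tnfrsf13b window was covered to 100% in KO replicate 2 and to 0% in the other 3 libraries, and the Tnfrsf17 window to 0% in all 4. Tnfsf13b has 2 annotated starts, and the window printed is that of the lower one, which was covered to 100% in both KO libraries, against 100% and 20.7% in WT replicates 1 and 2. The window of its other start (chr8:10006383-10006682) was covered to 100% in both KO libraries, against 100% and 76% in WT. Across all promoters, 21.8% and 32.8% were covered in full in the KO libraries, against 28.7% and 14.8% in the WT libraries. The annotated starts of Tnfrsf13b, Tnfrsf17 and Tnfsf13b lie inside the gene, above its lower end. Where a window around a gene end is described below, start means that gene end.

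Cd40 (gene ID 21939) spans 165055614 to 165071654 on chromosome 2, a length of 16041 bp. Mouse Cd40 is known to be transcribed towards higher coordinates, so its lower end is its start. This is background, since strand was not among the values used for this gene. The window at the lower end was covered to 57.0% in KO replicate 1 and 92.6% in KO replicate 2, and to 0% in both WT libraries. The groups did not overlap, with a mean of 74.8% ± 25.1 in KO, against 0% ± 0 in WT (SD, n = 2 each) and a difference of 74.8 points (SE 15.2). In KO replicate 1 a single peak of 2281 bp ran from 1452 bp before the end to 828 bp after it. In KO replicate 2 a peak of 2585 bp ran from 2229 bp before to 355 bp after, and another of 1773 bp began 653 bp into the gene. Both KO libraries shared 1808 bp (165054162 to 165055969) that neither WT library covered. The nearest WT peaks lay 14021 bp inward in WT replicate 1 and 7957 bp outward in WT replicate 2.

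**Figure D1:**
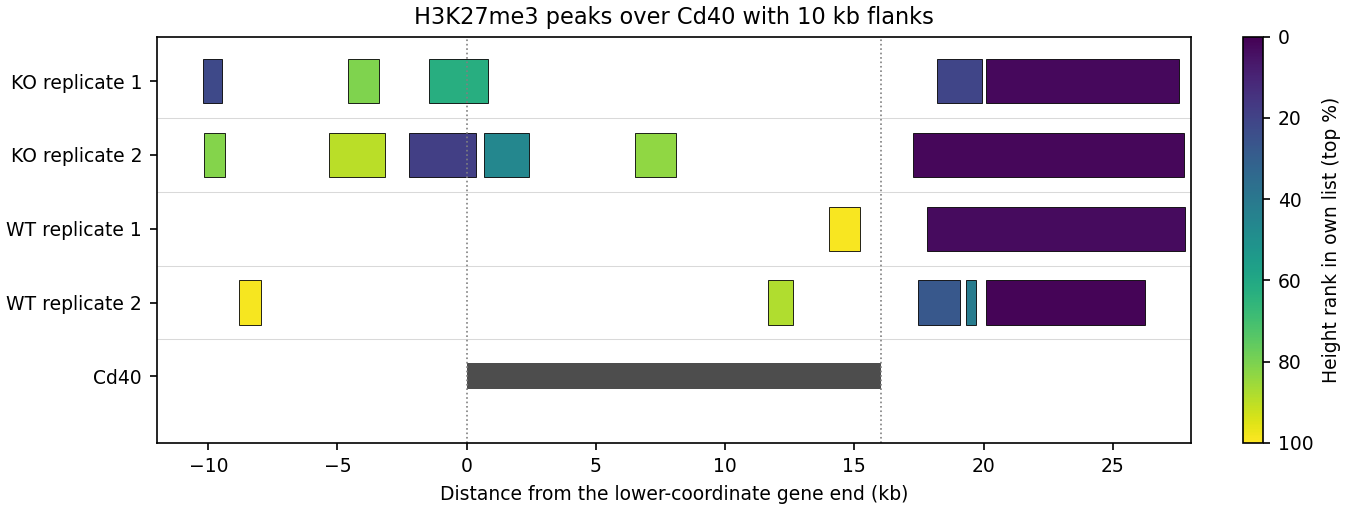
Peaks over Cd40 with 10 kb flanks, 1 row per library (KO above WT), against distance in kb from the lower-coordinate gene end; the grey bar is the gene, dotted lines are its ends, and colour gives the rank of each peak's height within its own list as a top percent. Peaks span the lower end in both KO libraries and in neither WT library, while a tall peak lies above the higher end in all 4.

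The peak over the lower end of Cd40 stood at different depths in the KO lists. The authors' signal has no stated scale, so heights were ranked within a list. The peak over the end ranked 50637 of 80639 in KO replicate 1 (top 62.8%) and 16658 of 90417 in KO replicate 2 (top 18.4%). The pattern therefore depends on how deep into each list peaks are kept. With the higher part of each list alone, cut at the median height, the share was 0% in KO replicate 1 and 92.6% in KO replicate 2, and 0% in both WT libraries. When every list was cut to its highest peaks until it covered as much as the narrowest list, the share was 0% in all 4 libraries. In that setting the lowest height kept in KO replicate 2 was 732.6, the very height of its Cd40 peak. Of 570 peaks at that height 13 were kept, those of largest total signal, and the Cd40 peak was not among them. In KO replicate 1 the Cd40 peak had a height of 631.81, under the 697.82 kept.

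The higher-coordinate end of Cd40 gave another picture. Its window was covered to 0% and 19.4% in KO replicates 1 and 2 and to 34.8% and 14.25% in WT replicates 1 and 2. The groups overlapped, with means of 9.69% ± 13.7 in KO, against 24.5% ± 14.5 in WT (SD, n = 2 each) and a difference of -14.85 points (SE 12.3). The WT replicate 1 value came in part from a low peak inside the gene, at rank 86515 of 87486. Just above the gene lay a broad stretch that every library carried. Within 12000 bp above this end, peaks covered 76.6% and 87.4% in KO, against 83.1% and 67.9% in WT, beginning 2162 and 1226 bp from the gene in KO, against 1779 and 1431 bp in WT. Its tallest peak ranked 1889 and 1493 in the KO lists (top 2.34% and 1.65%) and 2521 and 821 in the WT lists (top 2.88% and 0.998%). A run of 5936 bp (165075719 to 165081654, the last base of the 10 kb flank) was covered in all 4 libraries.

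The values at both ends of Cd40 changed with the width of the window. At 500 bp to each side the lower end was covered to 100% and 85.6% in KO and to 0% in both WT libraries, while the higher end was at 0% in all 4. At 5000 bp to each side the lower end had 34.8% and 61.9% in KO, against 0% in both WT libraries. There the higher end had 26.7% and 37.75% in KO, against 44.1% and 39.2% in WT, so both KO values lay below both WT values. At 2000 bp and at 10000 bp to each side KO and WT overlapped at the higher end. At 10000 bp to each side the lower end had 19.975% and 43.7% in KO, against 0% and 4.35% in WT, so KO and WT still did not overlap.

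**Figure D2:**
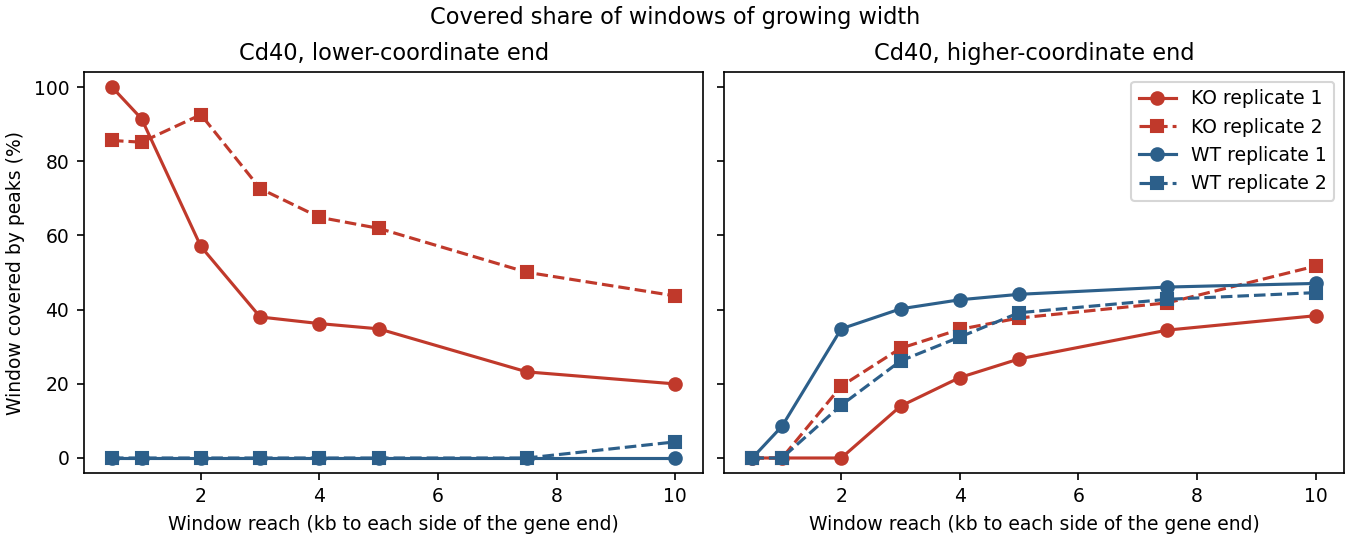
Share of a window covered by peaks (%) against the reach of the window to each side (kb) at the lower end (left) and the higher end (right) of Cd40, 1 line per library, KO red and WT blue. At the lower end KO lies above WT at every width. At the higher end all 4 libraries rise from 0% to different extents. There both KO libraries lie below both WT libraries at 5000 and 7500 bp, and the groups overlap at 10000 bp.

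On either side of Cd40 the mark was unevenly spread. Between Ncoa5, which encodes a nuclear receptor coactivator and lies below, and Cd40, peaks covered 20.2% and 34.7% of 20742 bp in KO, against 0% and 7.39% in WT. Between Cd40 and Cdh22, a cadherin gene of the nervous system, they covered 73.2% and 90.6% of 39846 bp in KO, against 77.6% and 55.9% in WT. The body of Cd40 itself was covered to 5.17% and 23.1% in KO, against 7.42% and 6.02% in WT, so over the whole gene KO replicate 1 lay below both WT libraries.

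Tnfrsf13c (gene ID 72049, BAFF receptor) is a short gene of 2639 bp on the minus strand of chromosome 15 (82221742 to 82224380), so its windows at the 2 ends overlap and its higher end is its start. At the start the window was covered to 27.95% in KO replicate 1 and 30.1% in KO replicate 2, and to 0% in both WT libraries. The groups did not overlap, and the means were 29.0% ± 1.52 in KO, against 0% ± 0 in WT (SD, n = 2 each), a difference of 29.0 points (SE 4.04, limma adjusted p = 0.907 over all ends). Both KO values lie close above the 25% at which an end counts as marked. The peak over the start measured 1118 bp in KO replicate 1 and 1204 bp in KO replicate 2, with ranks of 22069 of 80639 (top 27.4%) and 22625 of 90417 (top 25.0%). They shared 1112 bp (82224053 to 82225164) that neither WT library covered, and this run holds the whole promoter printed above. The nearest WT peaks lay 8210 bp and 10481 bp away. At equal covered length the start kept its share in KO replicate 1 (27.95%) and was at 0% in KO replicate 2 and in both WT libraries.

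At the other end of Tnfrsf13c the window was covered to 28.2% in KO replicate 2 and to 0% in KO replicate 1 and both WT libraries (limma adjusted p = 0.907). KO replicate 2 had 7 peaks in the gene and its 10 kb flanks, covering 45.2% of that stretch. KO replicate 1 had 3 peaks covering 14.2%, and the WT libraries had 1 each covering 5.43% and 4.62%. The difference at that end therefore came from a single library, KO replicate 2, which also had the broadest list. The peak nearest that end ranked 13912 of 90417 there (top 15.4%). At equal covered length the end kept its 28.2% in KO replicate 2 and was at 0% in KO replicate 1 and both WT libraries. The part of list breadth in this difference was not tested.

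Tnfrsf13b (gene ID 57916, TACI) lies on chromosome 11 at 61126283 to 61153170 and carried little of the mark. Its start, the lower end, was covered to 0% and 30.35% in KO replicates 1 and 2 and to 0% in both WT libraries, with means of 15.2% ± 21.5 in KO, against 0% ± 0 in WT (SD, n = 2 each, limma adjusted p = 0.907). The peak behind the KO replicate 2 value measured 1214 bp and ranked 61164 of 90417 (top 67.6%). Both KO libraries and WT replicate 1 had a peak about 3 kb before the gene, ending 2989 and 2804 bp before it in KO, against 2443 bp before it in WT. Its higher end had 0% in both KO libraries, against 0% and 4.58% in WT (limma adjusted p = 0.951).

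Tnfrsf17 (gene ID 21935, BCMA) on chromosome 16 (11313232 to 11320074) was bare. Both ends and the gene body had 0% in all 4 libraries. In the 10 kb flanks KO replicate 2 had 1 peak that reached 76 bp into the stretch, and WT replicate 2 had 1 of 573 bp, each below the gene. BCMA is a plasma cell receptor. Of the 6 plasma cell markers listed its gene and Jchain, the joining chain of secreted antibody, were those with no coverage at either end. Of all 21887 genes, 8043 had none in any library. The plasma cell surface gene Sdc1 had 95.6% and 100% at its start in KO, against 100% and 64.8% in WT. Prdm1, the plasma cell transcription factor gene, had 81.85% and 85.7% at its start in KO, against 86.5% and 61.0% in WT. Irf4 lay between, with 16.5% and 35.9% at its start in KO, against 21.6% and 0% in WT. Xbp1 had 0% and 27.9% at its start in KO, against 0% in both WT libraries. In this list 2 and 4 of 6 genes were marked at either end in KO, against 2 and 2 in WT. All genes stood at 33.9% and 46.7% in KO, against 41.1% and 26.9% in WT.

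Tnfsf13b (gene ID 24099, BAFF) was the member marked in every library. It lies on chromosome 8 at 10006229 to 10036000, and its start, the lower end, was covered to 87.2% and 93.2% in KO replicates 1 and 2 and to 97.05% and 59.2% in WT replicates 1 and 2. The groups overlapped, with means of 90.2% ± 4.22 in KO, against 78.1% ± 26.8 in WT (SD, n = 2 each), a difference of 12.1 points (SE 16.3, limma adjusted p = 0.921). WT replicate 2 held the WT mean down, and without it the difference was -6.86 points. The peak over the start ranked 7889 of 80639 in KO replicate 1 and 2401 of 90417 in KO replicate 2, and 5601 of 87486 in WT replicate 1. In WT replicate 2 the stretch was broken into pieces of 973, 471 and 1652 bp, the tallest at rank 20179 of 82292. The gene end fell in a gap, 226 bp from the nearest peak, while both annotated starts lay inside the piece of 1652 bp. Closing gaps of up to 1000 bp turned the difference to -8.34 points. A run of 1501 bp just inside the gene (10006455 to 10007955) was covered in all 4 libraries. Cut to equal covered length, all 4 lists kept their values at this start. The far end of the gene, 29772 bp long, had 0% in all 4.

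**Figure D3:**
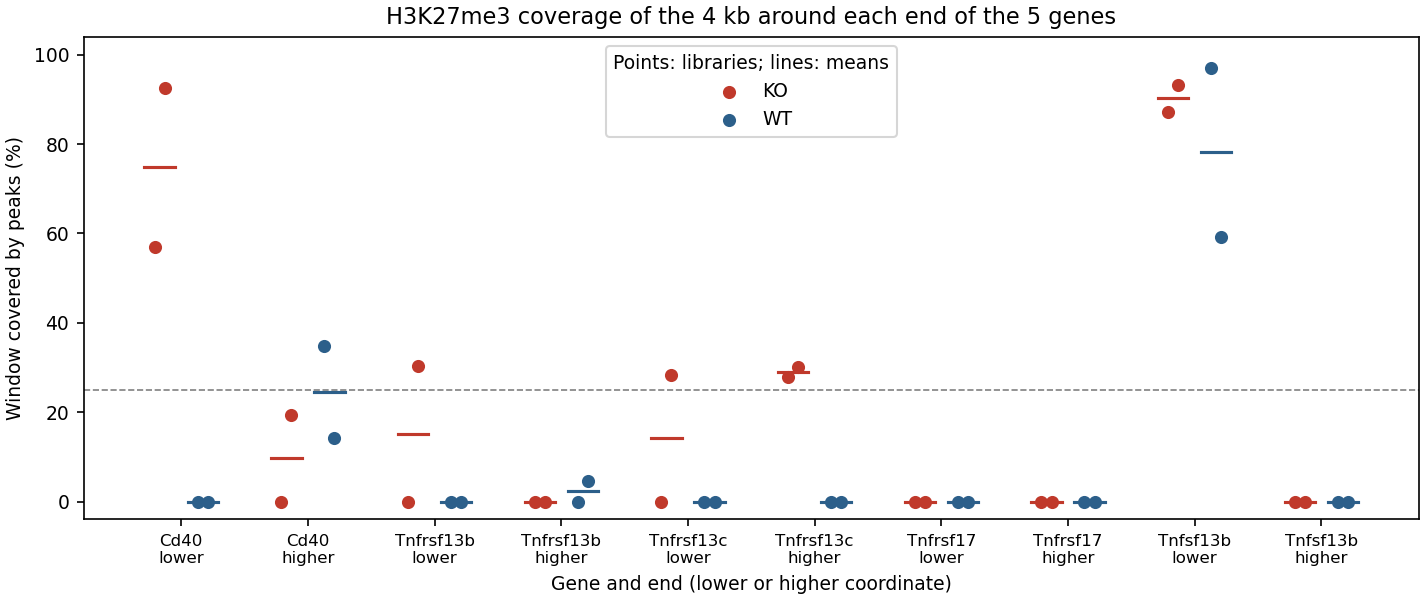
Share of the 4 kb around each gene end covered by peaks (%), for the lower-coordinate and higher-coordinate end of the 5 genes, with KO points left of WT points, lines at the mean of 2 libraries and a dashed line at 25%. KO and WT do not overlap at the lower end of Cd40 and the higher end of Tnfrsf13c, and the lower end of Tnfsf13b is high in all 4 libraries.

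**Figure D4:**
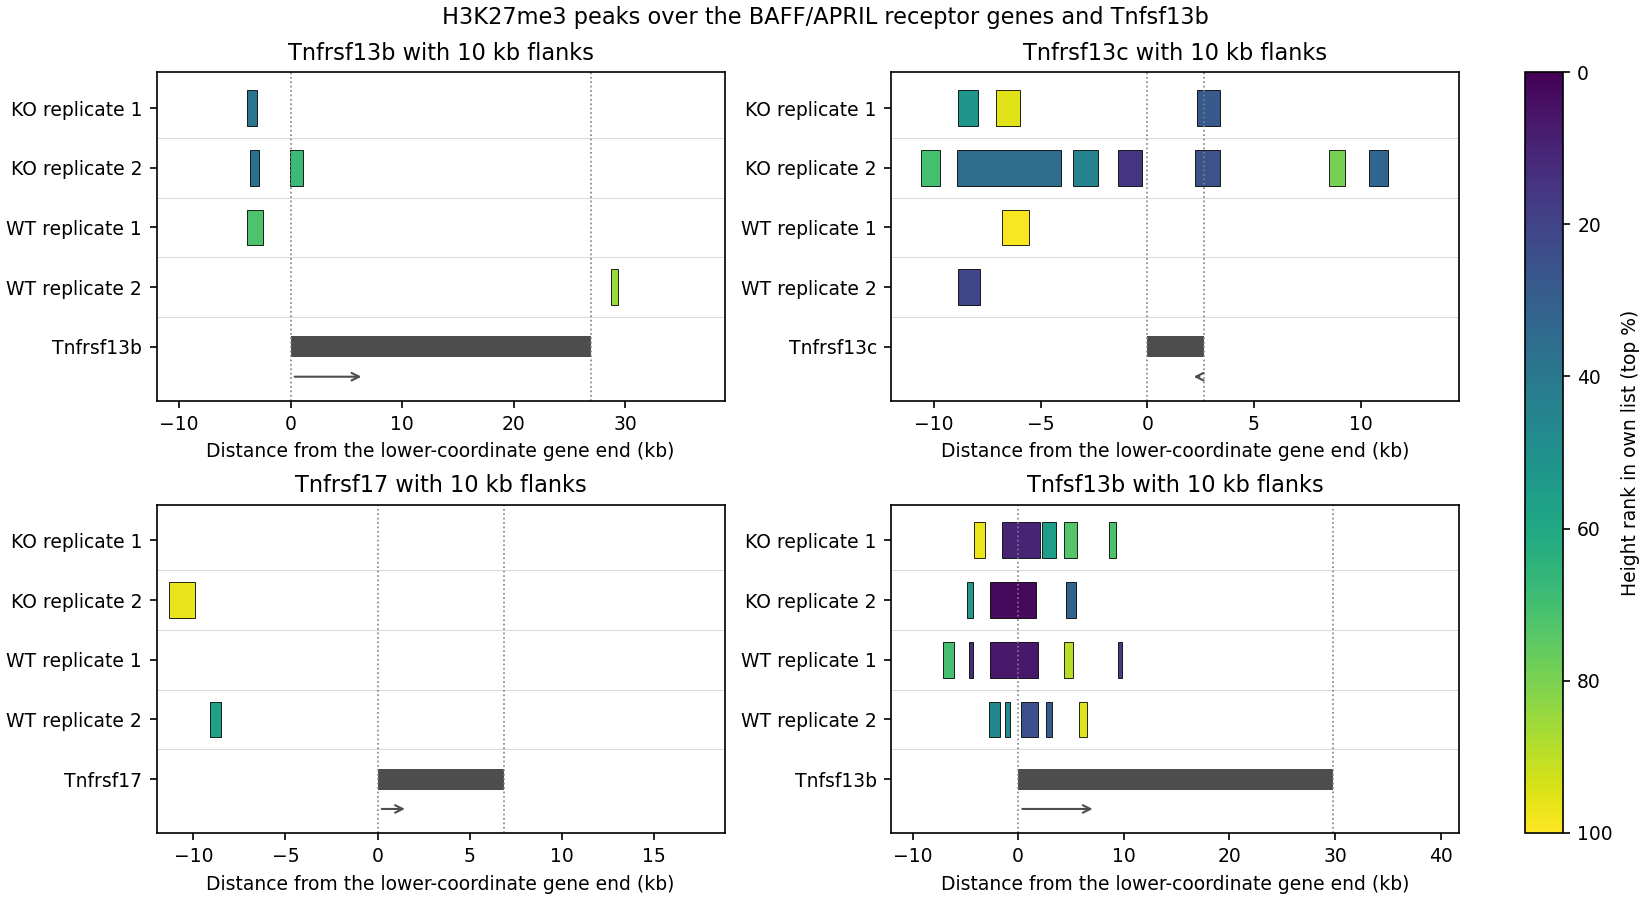
Peaks over Tnfrsf13b, Tnfrsf13c, Tnfrsf17 and Tnfsf13b with 10 kb flanks, KO rows above WT rows, against distance in kb from the lower-coordinate end; arrows show the direction of transcription and colour the height rank in the library's own list. Peaks over the start of Tnfrsf13c appear in both KO libraries and neither WT library, and the start of Tnfsf13b carries peaks in all 4.

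Set side by side, the 10 ends of the 5 genes held 3 and 5 marked ends in KO replicates 1 and 2 and 2 and 1 in WT replicates 1 and 2. Of all ends, 22.6% and 33.1% were marked in KO, against 28.8% and 17.3% in WT. Marked in both KO libraries and neither WT library were 2 of the 10 (the lower end of Cd40 and the start of Tnfrsf13c), where 0.923% of all 43774 ends had that pattern. Marked in both WT libraries and neither KO library were 0 of 10, against 0.16% of all ends. Since the set was chosen with Cd40 known to differ, nothing is read from these shares. The lower KO value exceeded the higher WT value at the same 2 ends, where 6.58% of all ends had that order. The higher KO value was below the lower WT value at 0 of 10, where 1.17% of all ends had that order. The start of Tnfsf13b was the 1 end marked in all 4 libraries, against 15.5% of all ends, and 3 ends had no coverage in any library, against 52.5%.

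**Figure D5:**
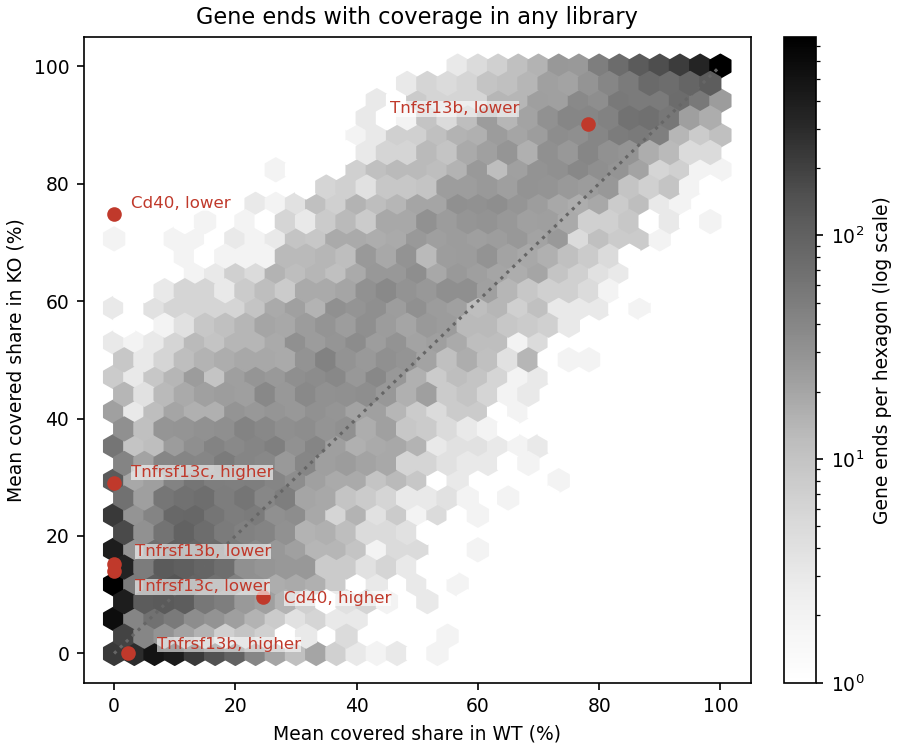
Mean covered share in KO (%) against mean covered share in WT (%) for the 20791 gene ends with coverage in any library, shaded by number of ends per hexagon on a log scale, with the 7 covered ends of the 5 genes in red; the dotted line marks equal shares. The lower end of Cd40 lies at 74.8% and 0%, and the start of Tnfsf13b at 90.2% and 78.1%.

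The ends most like the lower end of Cd40 are given as a description, since that end was chosen for its values. Of 43774 ends, 4 were at 0% in both WT libraries and at 50% or more in both KO libraries, Cd40 included, and at equal covered length Cd40 itself was at 0% in all 4. By the largest gap over the 4 libraries, the most similar ends belonged to Ifit1 and its neighbour Ifit1bl2, with gaps of 8.03 and 9.55 points. Ifit1, an interferon-induced antiviral gene, was covered to 58.15% and 84.55% in KO, against 0% in both WT libraries. The starts of this pair are so close that they share most of their windows. Coro2a, a coronin of the actin cytoskeleton, followed with 58.1% and 100% in KO, against 0% and 12.5% in WT (gap 12.5). Cxcl9, an interferon-induced chemokine, had 51.0% and 79.55% in KO, against 5.75% and 0% in WT at its lower end (gap 13.0). Csf2rb, the shared receptor chain for IL-3, IL-5 and GM-CSF, had 44.9% and 79.7% in KO, against 14.8% and 0% in WT (gap 14.8). Lyg2, a lysozyme-like gene, had 70.7% and 89.0% in KO, against 15.9% and 10.1% in WT (gap 15.9).

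The genes within 100 kb of Cd40 had marked ends, and those near Tnfsf13b had none. Of all genes, 33.9% and 46.7% had a marked end in KO, against 41.1% and 26.9% in WT. All 4 protein-coding genes within 100 kb of Cd40 had a marked end in each of the 4 libraries. Among them Mmp9, a matrix metalloproteinase gene, was covered over its body to 91.6% and 100% in KO, against 95.8% and 80.7% in WT. Slc12a5, a neuronal chloride transporter gene, had 67.5% and 87.9% in KO, against 82.0% and 57.3% in WT, and Cdh22 had 55.9% and 80.4% in KO, against 72.8% and 48.9% in WT. Ncoa5, the nearest, had 0% over its body in all 4 and was marked only in the window at its far end. Near Tnfsf13b, Lig4, a DNA ligase gene, and Abhd13 had no coverage over body or ends in any library. Of 3 genes near Tnfrsf17, Gspt1 and a predicted gene had a marked end in KO replicate 2 and in no other library, and Snx29 had none. Of 4 genes near Tnfrsf13b, 3 and 4 had a marked end in the KO libraries, against 3 and 3 in the WT libraries. These were Kcnj12, a potassium channel gene, and the aldehyde dehydrogenase genes Aldh3a1 and Aldh3a2 in all 4 libraries, and Usp22, which overlaps Tnfrsf13b at its far end, in KO replicate 2. Of 7 genes near Tnfrsf13c, 4 and 4 had a marked end in KO, against 3 and 4 in WT. They were Mei1, Septin3 and Wbp2nl in all 4 libraries and Shisa8 in all but WT replicate 1, while Ccdc134, Srebf2 and Cenpm had none.

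Of the ligands and their cofactors, 5 of 8 genes were marked at either end in each library. Of all genes, 33.9% and 46.7% were so marked in KO, against 41.1% and 26.9% in WT. Cd40lg, the CD40 ligand gene of T helper cells, had no coverage at either end in any library, nor had the syndecan gene Sdc2. Tnfsf13, the APRIL gene, was covered at its start to 95.25% and 100% in KO, against 83.8% and 45.3% in WT. The adjoining Tnfsf12, the gene of the ligand TWEAK, had 94.975% and 92.95% in KO, against 75.3% and 46.4% in WT at its less covered end. These ends lie so close that their windows share most of their bases, so they count as 1 observation. There both KO libraries were higher than either WT library (limma adjusted p = 0.907 for each). They were the 2 of 16 ends in this list with that order, against 6.58% of all ends. The reverse order was seen at 0 of the 16, against 1.17% of all ends. The other end of Tnfsf12 had 94.975% and 100% in KO, against 94.975% and 92.7% in WT (limma adjusted p = 0.913). The syndecan genes Sdc4 and Sdc1, whose proteoglycans bind APRIL, had means of 100% ± 0 and 97.8% ± 3.13 in KO, against 94.8% ± 7.39 and 82.4% ± 24.9 in WT (SD, n = 2).

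Of 18 receptor adaptors and kinases, 3 and 9 were marked in KO (16.7% and 50%), against 5 and 2 in WT (27.8% and 11.1%). All genes stood at 33.9% and 46.7% in KO, against 41.1% and 26.9% in WT. Of the ends in this list, 0 were marked in both libraries of a genotype and neither of the other. Of all ends, 0.923% were so marked in KO alone and 0.16% in WT alone. The deubiquitinase gene Otud7b was the most covered, with 100% in both KO libraries, against 80.9% and 66.9% in WT (limma adjusted p = 0.907). Traf6, the adaptor of CD40 that also serves Toll-like receptors, had 38.3% and 65.85% in KO, against 54.8% and 40.6% in WT. Traf3, which holds the alternative NF-kB pathway in check, had 27.3% and 67.3% in KO, against 44.35% and 16.75% in WT at its higher end. Tradd, an adaptor of TNF receptors with death domains, had 20.8% and 50.5% in KO, against 40.8% and 0% in WT. Birc2, Tab2 and Traf5 had no coverage. By count of marked genes, the libraries stood in the order of the length of genome their peaks covered, in this list and over all genes alike. Otud7b and Traf6 departed from that order, and the cause was not tested.

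Of 14 NF-kB core genes, 4 and 5 were marked in KO (28.6% and 35.7%), against 3 and 0 in WT (21.4% and 0%). All genes stood at 33.9% and 46.7% in KO, against 41.1% and 26.9% in WT. The kinase gene Ikbkb had 26.95% and 51.2% in KO, against 0% in both WT libraries at its higher end. That end was the 1 of 28 in this list marked in both KO and neither WT, where 0.923% of all ends had that pattern. The inhibitor gene Nfkbie had 20.9% and 100% in KO, against 13.05% and 0% in WT at its start. Nfkbib, another inhibitor gene, had 22.3% and 20.85% in KO, against 0% in both WT libraries at its start, and 30.6% and 71.85% in KO, against 25.1% and 0% in WT at its other end. These 4 ends had a limma adjusted p of 0.907. They were the 4 of 28 at which both KO libraries exceeded both WT libraries, against 6.58% of all ends. Both KO libraries fell below both WT libraries at 0 of the 28, against 1.17% of all ends. Nfkb2, which encodes the precursor used by the alternative pathway, had 36.35% and 90.975% in KO, against 66.9% and 0% in WT, and Nfkb1 had 44.5% and 57.6% in KO, against 58.3% and 16.7% in WT. Rel, Chuk, Ikbkg, Bcl3, Nfkbid and Nfkbiz had no coverage.

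Of 30 CD40 and NF-kB target genes, 9 and 15 were marked in KO (30% and 50%), against 10 and 5 in WT (33.3% and 16.7%). All genes stood at 33.9% and 46.7% in KO, against 41.1% and 26.9% in WT. Both libraries of KO exceeded both of WT at 8 of 60 ends of this list and fell below at 0. Of all ends, 6.58% lay above and 1.17% below in this way. The chemokine gene Ccl22 had 100% in both KO libraries, against 85.8% and 51.0% in WT at its start, and 79.15% and 100% in KO, against 61.55% and 17.05% in WT at its other end. Il6, a cytokine gene, had 45.2% and 76.7% in KO, against 41.85% and 0% in WT. Ccnd2, a cyclin gene, had 100% in both KO libraries, against 90.5% and 58.5% in WT. These ends had a limma adjusted p of 0.907. The homing receptor gene Ccr7, the costimulatory ligand gene Icosl and the survival gene Bcl2l1 were the other most covered, with means of 96.1% ± 5.53, 100% ± 0 and 100% ± 0 in KO, against 91.2% ± 12.4, 80.6% ± 19.3 and 78.6% ± 30.3 in WT (SD, n = 2). Cd80, Cd83, Cd44, Pim1, Mcl1, Tnf, Lta, Slamf1, Bcl2a1b and Bcl2a1d, 10 of the 30, had no coverage, as had 8043 of all 21887 genes.

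The other 24 genes of the TNF receptor superfamily had 12 and 14 marked genes in the KO libraries (50% and 58.3%) and 15 and 11 in the WT libraries (62.5% and 45.8%). All genes stood at 33.9% and 46.7% in KO, against 41.1% and 26.9% in WT. Both KO libraries exceeded both WT libraries at 0 of the 48 ends of these receptors and fell below at 0, against 6.58% and 1.17% of all ends. Tnfrsf25, Tnfrsf1a and the neurotrophin receptor gene Ngfr were covered to 100% at their starts in all 4 libraries, and Tnfrsf12a, the TWEAK receptor gene, to 100% in both KO libraries, against 100% and 95.95% in WT. The median of the KO minus WT differences over ends with coverage was 1.55 points for these receptors. It was 8.64 points for the ligands and cofactors, 11.5 for the adaptors and kinases, 17.55 for the NF-kB core, 18.3 for the target genes and 6.61 for all ends. At equal covered length, a setting added after the values were seen, the median was 0 points for the other receptors and 13.7 for the ligands and cofactors. It was -5.47 for the adaptors and kinases, 13.5 for the NF-kB core, 17.4 for the target genes and 1.78 for all ends. With each library left out in turn it ran from -0.312 to 10.8 for the other receptors, -1.11 to 31.0 for the ligands and cofactors and -5.42 to 23.4 for the adaptors and kinases. It ran from 2.54 to 34.3 for the NF-kB core, 8.26 to 26.6 for the target genes and 0 to 14.15 for all ends.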

How the data were processed

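H3K27me3 was mapped by CUT&Tag in 4 libraries, 2 KO and 2 WT, grouped by the genotype in the labels. Each library came as its own peak list of 6 columns, and the authors deposited total and highest signal (coverage) per peak, on a scale that is not given in the sources used here. Per the submitters' processing notes, the mm10 build was used with Bowtie2 2.4.2, Trim Galore 0.6.6, SAMtools 1.11, deepTools and SEACR. The control, threshold and roles of the tools are not given there. Read depth is unknown, so no counting interval was computed, and precision rests on 2 mice per genotype.

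Autosomal, X and Y peaks were used. Gene positions were RefSeq on GRCm38.p6. The share of 2000 bp to each side of both ends of 21887 genes was computed with Python 3.11.15, numpy 2.4.6 and pandas 2.3.3. These shares were compared with limma 3.58.1 (lmFit, eBayes without trend) in R 4.3.3 over 20791 ends with coverage, Benjamini-Hochberg adjusted, with 0.05 as threshold. The fit was tested on simulated shares with known differences and normal noise of set size, which does not show how it performs on these data. An exact permutation of 2 against 2 cannot go below p = 0.333, so none is given. Peaks were listed over gene bodies with 10 kb flanks, where a 1 bp overlap counted, and ranked by height within a list.

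The members and the gene lists were chosen with earlier results of these data known. Named were the 5 members and the protein-coding genes within 100 kb of them. From each list, those with the highest mean share and those with the largest non-overlapping differences were named, up to 4 each, and for the marker lists a few of these. The 6 ends most like Cd40 were also named, leaving aside predicted genes and the receptor families for smell, pheromones and taste. One listed symbol, Camlg, was matched through a synonym. Alternatives were other windows, peak cut-offs, closed gaps, a covered-length covariate, a filter at a mean share of 10%, other marking thresholds and each library left out. The count of marked ends at equal covered length and the list medians at equal covered length and without each library were added after seeing the data.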

Additional observations from a re-analysis of the deposited data

How the results depend on the processing

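With 2 mice per genotype and no read counts, differences of any size could be missed. A count of 0 calls therefore does not show that large ones are absent. The smallest limma adjusted p of the main fit was 0.907. Limma called 0 gene ends in each alternative fit run. Its unadjusted counts at the 0.05 level were 224 higher and 11 lower of 24550 ends with 5000 bp to each side. They were 780 higher and 155 lower of 20791 with gaps closed, and 461 and 301 of 20791 with covered length as a covariate. Nothing is read from these counts. The median difference over all ends moved from 6.61 points to 1.78 at equal covered length and 2.21 with covered length as a covariate. It was 13.96 without KO replicate 1, 14.15 without WT replicate 1, and 0 without KO replicate 2 and without WT replicate 2. No paired analysis was possible because the labels give no replicate numbers, and those used here follow accession order and name libraries only.

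The difference at the lower end of Cd40 was 74.8 points. It was 48.4 with 5000 bp to each side, 46.3 in the higher part of each list by peak height and 0 at equal covered length, where the KO replicate 2 peak was lost in a tie of heights. It ranged from 57.0 to 92.6 points with each library left out. The higher end of Cd40 turned from -14.85 points to -0.213 at equal covered length and in the higher part of each list, and ranged from -25.1 to -4.56 with libraries left out. The start of Tnfrsf13b went to 0 at equal covered length and in the higher part of each list, and ranged from 0 to 30.35 with libraries left out. Its other end went to 0 with 1000 bp to each side and in the higher part of each list, and ranged from -4.58 to 0. The lower end of Tnfrsf13c ranged from 0 to 28.2 with libraries left out. The start of Tnfsf13b reversed to -8.34 with gaps closed, and ranged from -6.86 to 31.0. The start of Tnfrsf13c kept its direction in each alternative run. With 0% in both WT libraries, peak cuts and left-out libraries could not have reversed it. Its difference of 29.0 points went to 13.975 at equal covered length, where KO replicate 2 had 0%. The difference was 58.05 points with 1000 bp to each side and 17.39 with 5000 bp.

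Of the 10 member ends, KO replicate 2 had 2 marked, in place of 5, at a 50% threshold and at equal covered length, and WT replicate 1 had 1 in place of 2 in both settings. WT replicate 2 had 2 in place of 1 at a 10% threshold. Without flanks, 6 and 7 peaks lay over the members in KO replicates 1 and 2 (14 and 19 with flanks) and 4 and 4 in WT replicates 1 and 2 (9 and 13 with flanks). Fewer bases are searched there by construction. The cause of the other shifts was not tested.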
